A study of Mus musculus with 2 samples.

Results

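The genes described here are the classical and non-classical MHC class I heavy chain genes H2-K1, H2-D1 and H2-T23, the light chain gene B2m, the peptide loading genes Tap1, Tap2 and Tapbp, and the transactivator gene Nlrc5. These 8 genes were chosen by name from the 23988 genes of the table, and each symbol was found once. The cells were untransformed myeloid progenitors of C57BL/6 mice: bone marrow depleted of lineage-positive cells and kept for 7 days in a myeloid culture with IL3, SCF and IL6, with no other treatment. There was 1 group of 2 libraries, replicate 2 and replicate 1, and the labels do not say whether these came from separate cultures or animals. The spread between them may therefore be technical. With so few libraries the smallest p of an exact sign-flip permutation test is 0.5, so no test was run and each ratio between the libraries is a description of those libraries.

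MHC class I molecules show peptides from inside the cell to CD8 T cells and are ligands for receptors of natural killer cells. The proteasome cuts proteins into peptides, the transporter formed by TAP1 and TAP2 moves these into the endoplasmic reticulum, and tapasin, the product of Tapbp, holds the transporter and an empty class I molecule together while a peptide is loaded. A heavy chain reaches the cell surface well only with the light chain, beta-2 microglobulin. Nearly all nucleated cells make class I molecules, interferons raise their genes, and NLRC5, a relative of the class II transactivator CIITA, acts at their promoters through factors bound to the X and Y boxes.

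All 8 genes were expressed in both libraries, with B2m and the classical heavy chain genes above the loading genes and Nlrc5 lowest. Values are RPKM, reads scaled to the length of the gene and the size of the library. Each of the 8 stood at 1 RPKM or more in both libraries, as did 43.5% of all genes. The sum over the 8 genes was 1169 RPKM in replicate 2 and 784 RPKM in replicate 1, which was 0.19% of all RPKM in replicate 2 and 0.128% in replicate 1.

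B2m, the light chain shared by all class I molecules, was the highest of the 8. It stood at 554 RPKM in replicate 2 and 358 RPKM in replicate 1, and ranked 156 among all genes in replicate 2 and 238 in replicate 1. These values correspond to at least 26099 reads in replicate 2 and 17519 reads in replicate 1. The ratio was 1.55, with a 95% interval of 1.52 to 1.58 that covers counting error only (exact Clopper-Pearson), as for the ratios of the other genes.

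The classical heavy chain genes came next. H2-D1, which encodes the H-2D heavy chain, stood at 249 RPKM in replicate 2 and 181 RPKM in replicate 1, a ratio of 1.38 with an interval of 1.34 to 1.43. H2-K1, for the H-2K heavy chain, stood at 196 RPKM in replicate 2 and 127 RPKM in replicate 1, a ratio of 1.54 with an interval of 1.49 to 1.59. Replicate 2 was the higher library for both, and H2-D1 was above H2-K1 in each library. H2-T23, which encodes the non-classical molecule Qa-1 that presents leader peptides of other class I chains to the CD94 and NKG2 receptors, was lower. It stood at 51.6 RPKM in replicate 2 and 36.7 RPKM in replicate 1, a ratio of 1.41 with an interval of 1.29 to 1.53 from at least 1306 reads in replicate 2 and 965 reads in replicate 1. Heavy chain genes resemble each other and other genes of the H2 region, so reads may have been shared or lost between them and the value of a single one is uncertain.

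Among the loading genes, tapasin was the highest and the TAP subunits were unequal. Tapbp stood at 66.0 RPKM in replicate 2 and 51.6 RPKM in replicate 1, a ratio of 1.28 with an interval of 1.23 to 1.33, the smallest ratio of the 8. Tap2 stood at 36.1 RPKM in replicate 2 and 22.5 RPKM in replicate 1, a ratio of 1.60 with an interval of 1.48 to 1.73. Tap1 was lower than Tap2 in each library although their products pair in the transporter. It stood at 11.99 RPKM in replicate 2 and 5.23 RPKM in replicate 1, from at least 2377 reads in replicate 2 and 1077 reads in replicate 1. Its ratio of 2.30 with an interval of 2.13 to 2.47 was the largest of the 8. Nlrc5 stood at 3.06 RPKM in replicate 2 and 2.14 RPKM in replicate 1, from at least 359 reads in replicate 2 and 262 reads in replicate 1. Its ratio of 1.42 had an interval of 1.21 to 1.68, the widest as computed from these lower limits of reads.

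**Figure D1:**
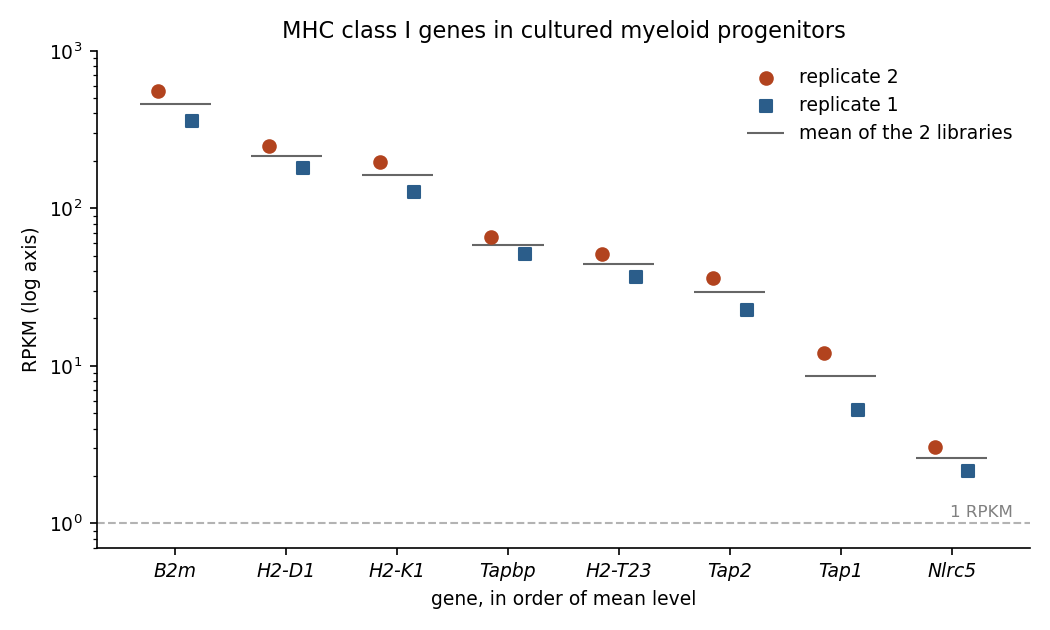
RPKM of the 8 class I genes on a log axis, with 1 point per library (circle, replicate 2; square, replicate 1) and a line at the mean of the 2 libraries. The order from B2m to Nlrc5 is the same in both libraries, and the circle lies above the square for each of the 8 genes.

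The order of levels was the same in both libraries: B2m, H2-D1, H2-K1, Tapbp, H2-T23, Tap2, Tap1 and Nlrc5. Of the 7 pairs of neighbours in this order, H2-D1 and H2-K1 had ranges that overlapped, since H2-K1 in replicate 2 exceeded H2-D1 in replicate 1. Tapbp in replicate 1 and H2-T23 in replicate 2 were equal to 3 digits. The pairs were ordered by the means of these same values, so the direction of each mean difference was set beforehand. Taken within a library, the difference between neighbours exceeded 2 SD for each of the 7 pairs on the log2(RPKM + 1) scale. The smallest was 0.42 ± 0.09 (SD, n = 2) between Tapbp and H2-T23 and the largest 1.72 ± 0.29 (SD, n = 2) between Tap2 and Tap1. The order holds only as far as the gene lengths behind the deposited values, which the sources used here do not state, are right.

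Chain genes kept closer proportions between the libraries than the TAP subunits did. H2-K1 and H2-D1 together equalled 0.804 of the B2m level in replicate 2 and 0.861 in replicate 1. The level of H2-D1 was 1.27 times that of H2-K1 in replicate 2 and 1.42 times in replicate 1. Tap2 was 3.01 times Tap1 in replicate 2 and 4.31 times in replicate 1, and Tapbp was 5.50 times Tap1 in replicate 2 and 9.88 times in replicate 1. Tap1 stood at 2.16% of the B2m level in replicate 2 and at 1.46% in replicate 1. Such ratios within a library do not depend on how that library was scaled.

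The upstream sequences of H2-K1, H2-D1, B2m and Tap1 are shown because the first 3 carry a shared pair of boxes and Tap1 had the largest ratio. They are the 250 bases before the annotated start, 5′ to 3′ on the strand of the gene, from RefSeq on build GRCm38.p6, which is not the build of the deposited values. H2-K1 lies at chr17:34000334-34000583 on the minus strand (the start nearer the coding region of 2 in the table), H2-D1 at chr17:35262844-35263093, B2m at chr2:122147437-122147686 and Tap1 at chr17:34187306-34187555, the last 3 on the plus strand. Capitals mark 4 motifs on either strand: a kB core GGGGATTCC, an interferon regulatory factor core AANNGAAA, an X2 box core TGACG and a Y box core ATTGG. None of the marked matches overlapped.
H2-K1: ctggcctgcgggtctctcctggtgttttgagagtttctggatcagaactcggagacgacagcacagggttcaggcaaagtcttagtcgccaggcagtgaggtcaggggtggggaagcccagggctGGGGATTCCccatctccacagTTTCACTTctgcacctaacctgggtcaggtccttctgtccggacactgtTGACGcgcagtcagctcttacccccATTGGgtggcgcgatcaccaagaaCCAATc
H2-D1: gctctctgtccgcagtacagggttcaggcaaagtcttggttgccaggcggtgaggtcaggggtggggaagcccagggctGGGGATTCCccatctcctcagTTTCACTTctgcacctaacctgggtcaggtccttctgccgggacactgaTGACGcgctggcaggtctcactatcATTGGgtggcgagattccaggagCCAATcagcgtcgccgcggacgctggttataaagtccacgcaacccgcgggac
B2m: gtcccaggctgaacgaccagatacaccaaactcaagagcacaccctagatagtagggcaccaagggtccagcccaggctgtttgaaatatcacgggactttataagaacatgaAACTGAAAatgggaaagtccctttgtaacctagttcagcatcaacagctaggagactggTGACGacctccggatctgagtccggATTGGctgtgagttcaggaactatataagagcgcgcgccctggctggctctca
Tap1: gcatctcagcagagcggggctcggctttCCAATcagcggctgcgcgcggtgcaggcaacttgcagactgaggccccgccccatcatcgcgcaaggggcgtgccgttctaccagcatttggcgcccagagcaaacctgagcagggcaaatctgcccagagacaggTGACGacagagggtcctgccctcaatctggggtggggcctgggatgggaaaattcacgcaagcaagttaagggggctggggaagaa

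Sequences for 6 of the 8 genes were in the table, and Tap2 and Nlrc5 were not matched. H2-K1 and H2-D1 held all 4 motifs, as did 0.0152% of 32851 promoters of that length. That share was 5 entries, which included both starts of H2-K1 and that of H2-D1, so it is no outside background. The sequences of H2-K1 and H2-D1 were 87.2% identical over 203 aligned bases. The kB core occurred in 0.213% of promoters, the interferon regulatory factor core in 21.3%, X2 in 17.8% and Y in 33.8%, so a match to any of the last 3 alone is common. The X2 and Y cores began 25 bases apart in H2-K1, H2-D1 and B2m. The same order and spacing stood in 0.0913% of all promoters, 30 entries of 26 genes, which also included the non-classical class I gene H2-M3. This spacing was looked for after it was seen in H2-K1. H2-T23 held a Y core and 2 interferon regulatory factor cores, Tapbp 2 Y cores, and Tap1 an X2 core 86 bases before the start with a Y core farther upstream. A match is a description of letters and not a bound site.

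**Figure D2:**
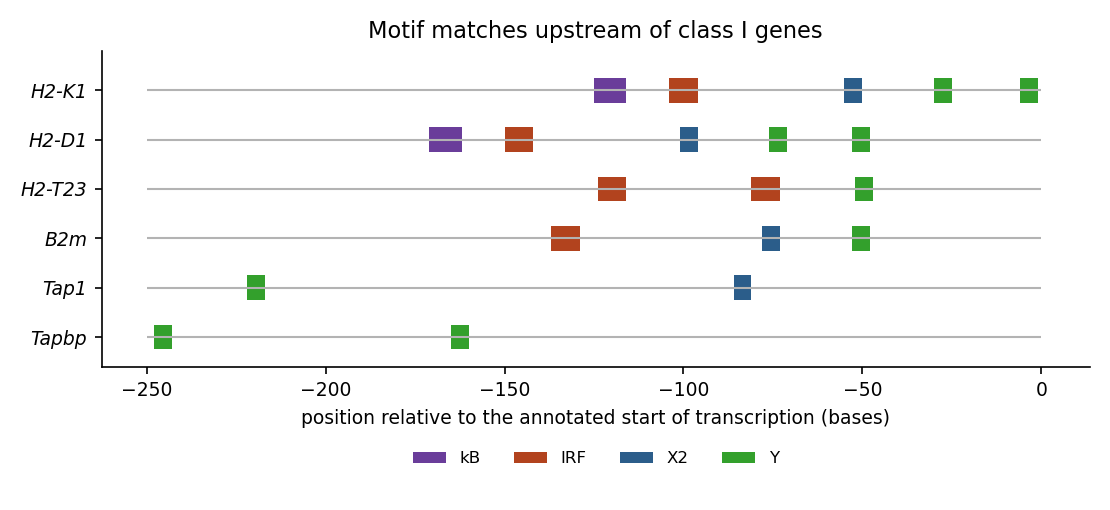
Positions of the 4 motif cores in the 250 bases before the annotated start of 6 class I genes, each box being 1 match on either strand. H2-K1 and H2-D1 share the order kB, IRF (interferon regulatory factor), X2 and Y, and X2 and Y begin 25 bases apart in H2-K1, H2-D1 and B2m.

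All 8 genes had higher values in replicate 2, and the counting interval of each ratio lay above 1. Such intervals were computed for these 8 genes only, so the share of all genes with the same outcome is not known. They cover counting error and not the spread between cultures or animals. For comparison with other genes the ratio was taken as log2 of replicate 2 over replicate 1 after adding 1 RPKM, over the 10896 genes whose mean reached 1 RPKM. On this scale, which understates differences of low genes, the 8 genes had a median of 0.55 and a range of 0.35 to 1.06, while all compared genes had a median of -0.05 and an SD of 0.55. Replicate 2 was higher by any amount for 44.1% of compared genes. B2m, H2-K1, Tap1 and Tap2, 4 of the 8, reached a ratio of at least 1.5-fold upward in replicate 2, against 11.3% of compared genes, and none of the 8 reached it downward, against 4.26%. Each of the 8 was above 1 RPKM in both libraries, whereas 245 of the 1234 genes at 1.5-fold upward were under 1 RPKM in replicate 1 and met the mean only through replicate 2. Tap1 alone reached 2-fold, as did 5.3% of compared genes. Ratios as high as that of Tap1 were found for 4.74% of compared genes and as high as that of Tapbp for 18.8%, so each of the 8 lay inside the central 95% of compared genes, -0.67 to 1.47. Reference genes, among them Actb and Gapdh, had a median ratio of -0.07 over 10 genes and a range of -0.41 to 0.32. Gapdh had the highest of these ratios, and none of the 10 genes was 1.5-fold apart.

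**Figure D3:**
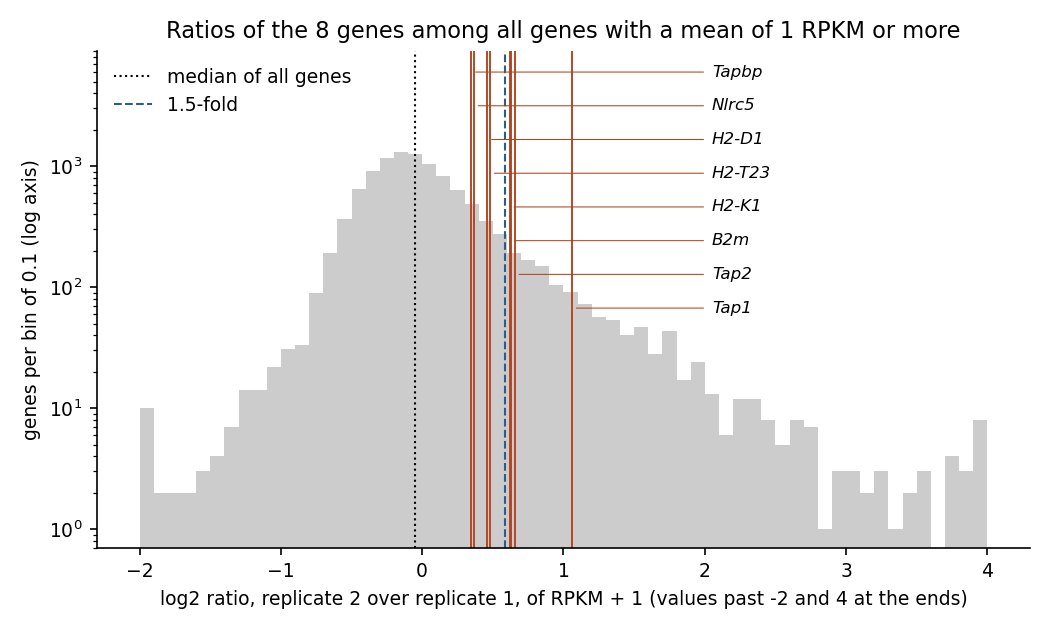
Histogram (log axis) of the log2 ratio of replicate 2 over replicate 1 for 10896 genes with a mean of 1 RPKM or more, with the 8 class I genes as solid lines, the median of all genes dotted and 1.5-fold dashed. The 8 genes lie between 0.35 and 1.06, to the right of the median of -0.05, in a flank shared with many other genes.

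Other class I chain genes with a mean of 1 RPKM or more, 6 of 28, were all higher in replicate 2. Of the 28 listed genes 15 were at 0 in both libraries, including H2-Q6, H2-Q7, H2-Q8, H2-Q9 and H2-T9, where near-identical copies can lose all reads in counting, so that 0 need not mean no expression. The 6 had a median log2 ratio of 0.76, and 5 of them were at least 1.5-fold higher, H2-T24 at 4.19 RPKM in replicate 2 and 3.58 RPKM in replicate 1 being the exception. However, 3 of these 5, H2-M2, H2-Q5 and H2-T10, were under 1 RPKM in replicate 1 and met the mean only through replicate 2, so they had to be higher there and their count is no support for a direction. H2-Q4 was the highest at 28.98 RPKM in replicate 2 and 18.4 RPKM in replicate 1. H2-M3, which presents formylated peptides, stood at 10.7 RPKM in replicate 2 and 5.11 RPKM in replicate 1, and H2-M2 reached 6.68 RPKM in replicate 2 against 0.928 RPKM in replicate 1. Class I-like genes had a median of 0.46 over 5 genes. The neonatal Fc receptor gene Fcgrt stood at 39.4 RPKM in replicate 2 and 20.4 RPKM in replicate 1, and the lipid-presenting Cd1d1 reached 5.31 RPKM in replicate 2 against 2.94 RPKM in replicate 1. These 2 were past 1.5-fold, Hfe of iron control had a ratio of 0.46, and Procr, the protein C receptor gene, was past 1.5-fold in the other direction, with 1.28 RPKM in replicate 2 against 2.46 RPKM in replicate 1.

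The steps around loading did not share one direction. Psmb8 and Psmb9, the immunoproteasome subunits whose genes flank Tap1, had log2 ratios of 0.94 and 1.02. Psmb8 reached 110 RPKM in replicate 2 against 56.8 RPKM in replicate 1, and Psmb9 reached 78.0 RPKM in replicate 2 against 37.9 RPKM in replicate 1. Psmb9, which faces Tap1 across a shared promoter region, was 6.50 times Tap1 in replicate 2 and 7.26 times in replicate 1. The third inducible subunit gene, Psmb10, had a ratio of 0.15, and the activator genes Psme1 and Psme2 had ratios of -0.09 and -0.05. The constitutive counterparts Psmb5, Psmb6 and Psmb7 were lower in replicate 2, with ratios of -0.76, -0.31 and -0.59. Psmb8 thus equalled 0.610 of Psmb5 in replicate 2 and 0.186 in replicate 1.

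Chaperone and trimming genes covered a wide range of levels, and their ratios lay close to the median of all genes, with a list median of -0.14 and none of 8 at 1.5-fold in either direction. Calr (calreticulin) stood at 692 RPKM in replicate 2 and 881 RPKM in replicate 1, and Pdia3, whose product pairs with tapasin, reached 385 RPKM in replicate 2 against 449 RPKM in replicate 1. Canx (calnexin) had a ratio of -0.20. The peptide-trimming enzyme gene Erap1 was lower, at 12.4 RPKM in replicate 2 and 13.1 RPKM in replicate 1, a ratio of -0.07.

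Genes for factors that act at class I promoters were mostly similar in both libraries. Their median log2 ratio was 0.03 over 16 genes, and Irf8, a factor of monocytes and dendritic cells, was the one gene at 1.5-fold, with 29.6 RPKM in replicate 2 and 7.91 RPKM in replicate 1. Irf2 had the next ratio, 0.44. The highest in level were Atf1 and Creb1, of the family that binds X2, with ratios of -0.32 and 0.10, and the NF-kB subunit gene Rela with 0.05. The interferon mediator gene Irf1, named for its role after its value was seen, had a ratio of -0.21. The 13 interferon-induced genes at the minimum had a median of 0.19, 5 of them at least 1.5-fold higher, and Irgm1 had the lowest ratio, -0.52. Of all compared genes, 11.3% were at least 1.5-fold higher. Mx1 and Gbp3, with the highest ratios, 1.35 and 0.94, are 2 of these 5 interferon-induced genes and met the mean only through replicate 2. Gbp2, Isg15 and Usp18, the rest of these 5, were above 1 RPKM in both libraries and had ratios of 0.93, 0.81 and 0.65. Socs1 and Bst2, the highest of that list in level, had ratios of 0.13 and 0.19. Among the interferon receptor genes, Ifngr1 stood at 172 RPKM in replicate 2 and 161 RPKM in replicate 1. Ifnar1 and Ifngr2 had ratios of 0.37 and 0.12, and none of 4 reached 1.5-fold.

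**Figure D4:**
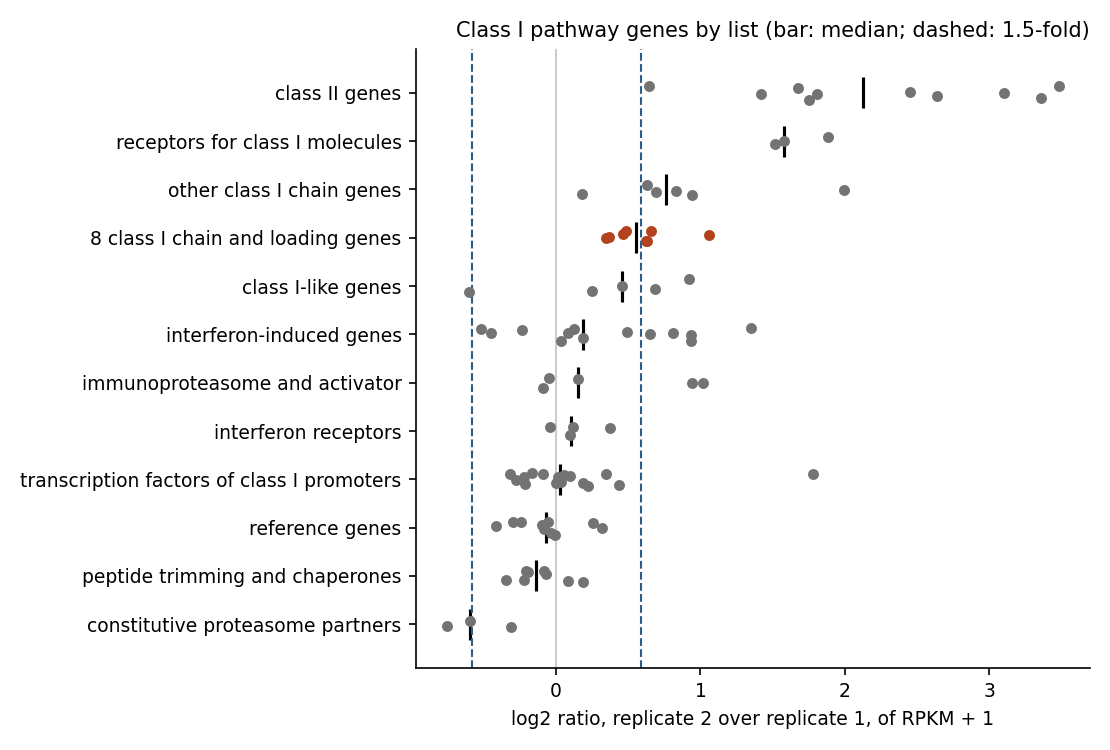
Log2 ratios of replicate 2 over replicate 1 for genes with a mean of 1 RPKM or more, 1 point per gene, by list, with the list median as a bar and 1.5-fold in either direction dashed. The 8 class I genes have a median of 0.55, between class II genes at 2.13 and chaperones at -0.14, and the immunoproteasome list separates into 2 genes near 1 and 3 near 0.

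Class II genes, the sister pathway for peptides taken up from outside, had larger ratios between the libraries. Of 11 class II genes 10 had a mean of 1 RPKM or more, and these 10 were all past 1.5-fold in favour of replicate 2, with a median of 2.13, although Ciita and H2-Ob, 2 of the 10, met the mean only through replicate 2. H2-Ab1 stood at 209 RPKM in replicate 2 and 17.8 RPKM in replicate 1, a log2 ratio of 3.48, and H2-Eb1 and H2-Aa, which encode other class II chains, had ratios of 3.36 and 3.10. The invariant chain gene Cd74 reached 560 RPKM in replicate 2 against 102 RPKM in replicate 1. H2-Ab1 equalled 1.06 times H2-K1 in replicate 2 and 0.139 times in replicate 1. Ciita equalled 1.25 times Nlrc5 in replicate 2 and 0.202 times in replicate 1. Differences of medians on the log2(RPKM + 1) scale were taken over all listed genes, also those with a mean under 1 RPKM. The lists held 11 class II and 20 interferon-induced genes, so these sets differ from those of the ratios. The median of the 8 class I genes exceeded that of class II genes by 1.09 in replicate 2 and 2.36 in replicate 1. This was 1.72 ± 0.89 (SD, n = 2), within 2 SD of 0. The median of the 8 genes exceeded that of interferon-induced genes by 3.98 in replicate 2 and 4.14 in replicate 1. This was 4.06 ± 0.11 (SD, n = 2), beyond 2 SD. The difference from the immunoproteasome list was -0.41 in replicate 2 and 0.09 in replicate 1, -0.16 ± 0.35 (SD, n = 2), so its sign depended on the library. Among the 10 pathway lists with at least 3 genes compared, the median was at least 1.5-fold higher in replicate 2 for 3, class II genes, receptors for class I molecules and other class I chain genes, and each of these held genes that met the mean only through replicate 2. The constitutive proteasome partners, with a median of -0.59, were the 1 list at least 1.5-fold lower, and at -0.54 they no longer were once the libraries were rescaled by the median ratio of all genes.

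Markers of other cells also had unequal levels in these libraries. The 8 monocyte and macrophage markers, each at 1 RPKM or more in both, summed to 3536 RPKM in replicate 2 and 1308 RPKM in replicate 1, with a median log2 ratio of 1.45. F13a1 and Ccr2 had the largest ratios of these, 3.29 and 2.43. The 6 mast cell and basophil markers, 4 of them at 1 RPKM or more in both and none at 0, summed to 2863 RPKM in replicate 2 and 1217 RPKM in replicate 1, with a median log2 ratio of 3.43. That sum is carried by Mcpt8, at 1567 RPKM in replicate 2 and 668 RPKM in replicate 1. The mast cell protease genes Mcpt4, Tpsb2 and Cma1 had ratios of 5.83, 5.62 and 5.54. Prss34, Mcpt8 and Cpa3 had ratios of 0.24, 1.23 and 1.325, so no marker lay near the median of 3.43. Mcpt4 stood at 66.96 RPKM in replicate 2 and 0.195 RPKM in replicate 1, and it and Tpsb2 met the mean of 1 RPKM only through replicate 2. Of 7 dendritic cell markers, Itgax alone was at 1 RPKM or more in both, Cd209a and Siglech were at 0 in replicate 1, and the list summed to 12.5 RPKM in replicate 2 and 3.22 RPKM in replicate 1. The 11 granulocyte and progenitor markers, including Kit and Cd34, were all at 1 RPKM or more in both. They summed to 15602 RPKM in replicate 2 and 13864 RPKM in replicate 1, with a median ratio of 0.11. Ngp was the largest part of that sum, at 7796 RPKM in replicate 2 and 6247 RPKM in replicate 1. The list had no single direction, with 6 markers higher and 5 lower in replicate 2, from -0.57 for Ctsg to 1.06 for Camp. No B cell marker of 4 reached 1 RPKM, Ms4a1 and Pax5 being at 0 in both libraries, and Nkg7 alone did among 6 T and NK cell markers, with Cd3e, Cd4 and Ncr1 at 0. No erythroid marker of 4 reached 1 RPKM in both libraries, and Pecam1, which leukocytes also express, and Pdgfrb did among 5 markers of stroma and endothelium. The part of these cells in the class I values was not tested, and in bulk RNA more cells of a type and more RNA per cell cannot be told apart.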

How the data were processed

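The authors deposited RPKM values for 2 libraries (reads scaled by gene length and library size). The submitters' processing notes name Trimmomatic 0.32, TopHat2, HTSeq, edgeR and the mouse build mm9; the sources used here do not state settings, gene lengths, strand use or library sizes. Of 24015 rows, 27 with names in the form of dates were left out. Columns were assigned to replicates by the sample titles.

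Genes with a mean of 1 RPKM or more entered ratios, log2 with a pseudocount of 1. The depth of each library is unknown. In 448 low genes both libraries had the same number of reads (tolerance 1e-05), which put the effective size of replicate 2 at 0.962 of that of replicate 1. With it the smallest whole read numbers that give the RPKM values of a gene were found, and the true numbers may be whole multiples of these. Reads have no molecular identifiers, so intervals cover counting error only. They rest on the smallest read numbers, so they may be too wide by an amount that differs between genes.

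The members and lists were chosen with earlier results of these data known. Named genes are the 8 members and, of each list, the 3 highest and the 2 with the largest ratios, besides those behind counts of up to 5; of the reference and marker lists and of the NKG2D ligands only some of these are named. Procr, Psmb10, Psme2, Ciita, Cma1, Erap1, Irf1, Kit, Cd34 and class I, receptor and marker genes given as at or near 0 were added for their role, with values known. Likeness to other genes was not measured, since over 2 libraries any pair of genes correlates at 1 or -1. Promoters were matched by symbol and aligned with Biopython 1.88. Alternatives covered pseudocount, minimum, scaling, fold and each library left out.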

Additional observations from a re-analysis of the deposited data

How the results depend on the processing

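No paired analysis was possible because there was 1 group. A ratio between the libraries needs both of them. The median log2(RPKM + 1) of the 8 genes was 5.68 over both libraries and 5.48 to 5.89 with 1 library left out. It was 6.38 with each library rescaled to a fixed sum, where the level depends on the sum chosen. Their median ratio stayed between 0.55 and 0.63 under 6 alternatives. The count of 4 genes at 1.5-fold was 4 under another pseudocount, minimum or scaling and 1 at 2-fold. Each of the 4 genes had a mean above 5 RPKM, so a change of minimum could not alter that count. The 3 lists with a median of 1.5-fold became 1 with a minimum of 5 RPKM, since the other 2 then had fewer than 3 genes, and the 1 list that was lower became 0 with rescaling by the median ratio of all genes. Over all listed genes and with 1 library left out, the difference from class II genes was 1.09 to 2.36. That from the immunoproteasome list was then -0.41 to 0.089, so its sign was not settled. The difference from interferon-induced genes was 3.98 to 4.14 with 1 library left out, or 4.55 with a pseudocount of 0.1. Of 69 values for single genes and lists under these alternatives 68 moved by less than 0.39, and the class II median was 2.67 with a pseudocount of 0.1. That limit was derived from the SD of the ratio over all compared genes and is not a measured error of a library. A change of minimum cannot alter the ratio of a single gene, so some of the 69 values could not move. Library depth is unknown, so the read numbers behind each ratio are lower limits.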

Other observations

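Receptors that bind class I molecules were mostly those of lymphocytes and near 0, with the exception of Pirb, Klra2 and Klrd1, of which Klrd1 met the mean of 1 RPKM only through replicate 2. Pirb, an inhibitory receptor of myeloid and B cells that binds class I, stood at 35.9 RPKM in replicate 2 and 11.9 RPKM in replicate 1. Klra2, of the Ly49 family, stood at 14.1 RPKM in replicate 2 and 4.08 RPKM in replicate 1. Klrd1, which encodes CD94 and with NKG2 chains recognises the product of H2-T23, stood at 2.87 RPKM in replicate 2 and 0.0501 RPKM in replicate 1, whereas its partner genes Klrc1 and Klrc2, and the T cell coreceptor genes Cd8a and Cd8b1, did not reach 1 RPKM in either library. None of the 8 ligand genes of the activating receptor NKG2D found in the table reached 1 RPKM, and they summed to 0.667 RPKM in replicate 2 and 0.130 RPKM in replicate 1.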
